A study of Mus musculus with 6 samples.

Results

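The unfolded protein response and the integrated stress response were followed at the mRNA level in M2 macrophages (Mφs) through 33 genes, taken by gene symbol from the 41549 genes of 1 count table. The 33 genes comprised 4 stress sensors, 5 transcription factors, 6 targets and regulators of the integrated stress response (ISR), 14 chaperones and folding enzymes of the endoplasmic reticulum (ER), and 4 components of ER-associated degradation. The table lists Ddit3 under 2 gene models, and the row with most reads was used. The cells were macrophages grown from bone marrow of wild type C57Bl/6 N mice aged 10 to 12 weeks, by 7 days in macrophage colony-stimulating factor (M-CSF, 10 ng/ml). All cultures were transfected with an antisense oligonucleotide as unpolarized (M0) macrophages and then exposed to IL-4 and IL-13 (10 ng/ml) for 48 h, which polarizes macrophages towards the anti-inflammatory M2 phenotype. The αGlu group (3 libraries) received an antisense against 5′tRF-Glu(CTC), and the Ctr group (3 libraries) received a control antisense. 5′tRF-Glu(CTC) is the 5′ part of a glutamate tRNA that is cut in or next to its anticodon loop. The study counts preparations of primary cells from different animals as replicates, while the labels tie no library to an animal, so the p-values measure the spread between these libraries.

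The antisense and the stretch of the fragment it was designed against are shown because the antisense is what the groups differ in. Capitals in the target mark bases 2 to 21, which pair with the antisense, and both are written 5′ to 3′.

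Antisense against 5′tRF-Glu(CTC): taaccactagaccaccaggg

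Target in 5′tRF-Glu(CTC): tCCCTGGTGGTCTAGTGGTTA

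mRNA libraries do not measure tRNA fragments, so the level of the target could not be read here as a check of the labels.

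Proteins that enter the secretory pathway fold in the ER. When unfolded proteins accumulate there, the membrane sensors IRE1 (Ern1), PERK (Eif2ak3) and ATF6 start the unfolded protein response: IRE1 splices the Xbp1 mRNA into the form that codes for an active transcription factor, ATF6 is cut to release one, and PERK phosphorylates the translation initiation factor eIF2. XBP1 and ATF6 raise the transcription of chaperones and of the degradation machinery. Phosphorylation of eIF2 is shared with GCN2 (Eif2ak4), which senses uncharged tRNA, and defines the ISR: bulk translation falls while ATF4 is made and turns on genes of amino acid supply and stress adaptation. Splicing of Xbp1, cleavage of ATF6 and phosphorylation of eIF2 cannot be read from the gene-level mRNA counts used here.

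The DNA elements that these factors are known to bind were looked up in RefSeq promoter windows (GRCm38.p6, 250 bases before to 50 bases after each transcription start). Windows were matched by symbol for 30 of the 33 genes, and the other 3 were Atf6, Hyou1 and Manf. The ER stress response element (ERSE, the letters CCAAT and CCACG with any 9 bases between them, either strand) occurred in 8 of the 30 and in 0.119% of all 32851 windows. The related ERSE-II (ATTGG, any base and CCACG) occurred in 2 of the 30 and in 0.0365% of all windows. These 10 windows belonged to 8 ER folding genes (Calr, Canx, Creld2, Dnajb11, Dnajc3, Hsp90b1, Hspa5 and Pdia6) and 2 degradation genes (Herpud1 and Syvn1). The C/EBP-ATF response element (CARE, TGATGNAA), through which ATF4 acts, occurred in 5 of the 30 (Asns, Atf3, Chac1, Herpud1 and Trib3) and in 3.97% of all windows. The XBP1-type element UPRE (TGACGTGG) was found in none of the 30 and in 0.676% of all windows, which says only that these letters are not in these windows. A match is a description of the letters and not evidence of binding.

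The matches of several genes whose values are described further on are printed in the direction of the gene, with the fixed letters of the motif in capitals. A motif on the opposite strand of the gene appears as its reverse complement. The first 6 hold an ERSE, the next 2 an ERSE-II and the last 3 a CARE.

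Hspa5, chr2:34772020-34772048, plus strand: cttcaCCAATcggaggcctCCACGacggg

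Calr, chr8:84847070-84847098, minus strand: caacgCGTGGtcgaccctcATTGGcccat

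Hsp90b1, chr10:86705633-86705661, minus strand: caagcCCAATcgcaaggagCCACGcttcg

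Canx, chr11:50325795-50325823, minus strand: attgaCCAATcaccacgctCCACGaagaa

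Creld2, chr15:88819515-88819543, plus strand: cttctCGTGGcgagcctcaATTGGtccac

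Pdia6, chr12:17266486-17266514, plus strand: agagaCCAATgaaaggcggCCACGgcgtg

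Herpud1, chr8:94386368-94386396, plus strand: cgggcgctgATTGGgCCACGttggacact

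Dnajb11, chr16:22857843-22857871, plus strand: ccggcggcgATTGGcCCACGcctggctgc

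Trib3, chr2:152344029-152344056, minus strand: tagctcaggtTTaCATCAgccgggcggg

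Chac1, chr2:119351039-119351066, plus strand: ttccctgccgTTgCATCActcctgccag

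Atf3, chr1:191183426-191183453, minus strand: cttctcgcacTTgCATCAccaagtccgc

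The Hspa5 match lies at −65 to −47 from the RefSeq start and within an exon of a longer Hspa5 transcript in GENCODE M21, and the Calr match at −162 to −144 lies in no annotated gene. Hsp90b1 held a second ERSE on the opposite strand at −107 to −89. The ERSE-II of Dnajb11 lies in an exon at 7 to 17 from the start, the CARE of Trib3 in an exon at 14 to 21, and the CARE of Atf3 in an intron of the longer Atf3 transcripts. The ERSE-II of Herpud1 lies at −52 to −42, within an intron of Gm15890 on the other strand, and the window also held a CARE at −112 to −105.

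Total counts per library lay between 17912831 and 30386653 reads, and all 8 macrophage markers examined were above 1 CPM (reads scaled to a library total of 1000000) on average. Any 2 libraries differed by more than sampling noise (chi-square per gene of 19.8 or more). The libraries of the αGlu group were not alike: across the 11933 genes tested, log2 CPM of αGlu 1 correlated with Ctr 2 and Ctr 3 at a Pearson r of 0.981 and 0.982, and with αGlu 2 and αGlu 3 at 0.929. αGlu 2 and αGlu 3 correlated with each other at 0.992. Genes are not independent replicates, so no test is attached to these correlations. Since αGlu 1 stands apart from the rest of its group, results are given with it and without it. αGlu 1 was set apart on these same data, and leaving it out sets only αGlu 2 and αGlu 3 against Ctr. Larger differences and a smaller spread without αGlu 1 follow in part from that choice. Adjusted p-values without αGlu 1 are therefore descriptions and no independent support.

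Genes counted as called had an adjusted p under 0.1 in edgeR's quasi-likelihood test with Benjamini-Hochberg adjustment over all genes tested, two-sided. With all 6 libraries none of the 31 tested genes of the set was called, beside 0% of the 11933 genes. Adjusted p ranged from 0.151 to 0.967 in the set, and the smallest of any gene was 0.149. The genes not tested were Chac1 and Ddit4, which did not reach the count minimum. At an unadjusted p under 0.05 there were 11 of the 31 (3 higher and 8 lower in αGlu), beside 24.7% of all genes (12.7% higher and 11.9% lower). With DESeq2, another count model, 10 of the 33 were called (4 higher and 6 lower), beside 15.9% of 13707 genes (7.77% higher and 8.13% lower), and with limma-voom none was. The median log2 fold change (αGlu over Ctr) was −0.31 in the set and 0.016 over all genes.

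Without αGlu 1, the same edgeR test called 26 of the 33 genes (8 higher and 18 lower in αGlu), beside 49.1% of 12340 genes (23.5% higher and 25.6% lower), and the median of the set was −0.41. Chac1 and Ddit4 entered this test only through their high counts in αGlu 2 and αGlu 3, so their presence among the higher genes follows from the filter. All 10 genes that DESeq2 called with 6 libraries were among the 26. A total of 16 of the 31 genes did not overlap between the groups with all 6 libraries, beside 30.2% of all genes tested: 13 had every αGlu library below every Ctr library, beside 15.9%, and 3 (Atf5, Trib3 and Sesn2) had every αGlu library above, beside 14.2%.

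**Figure D1:**
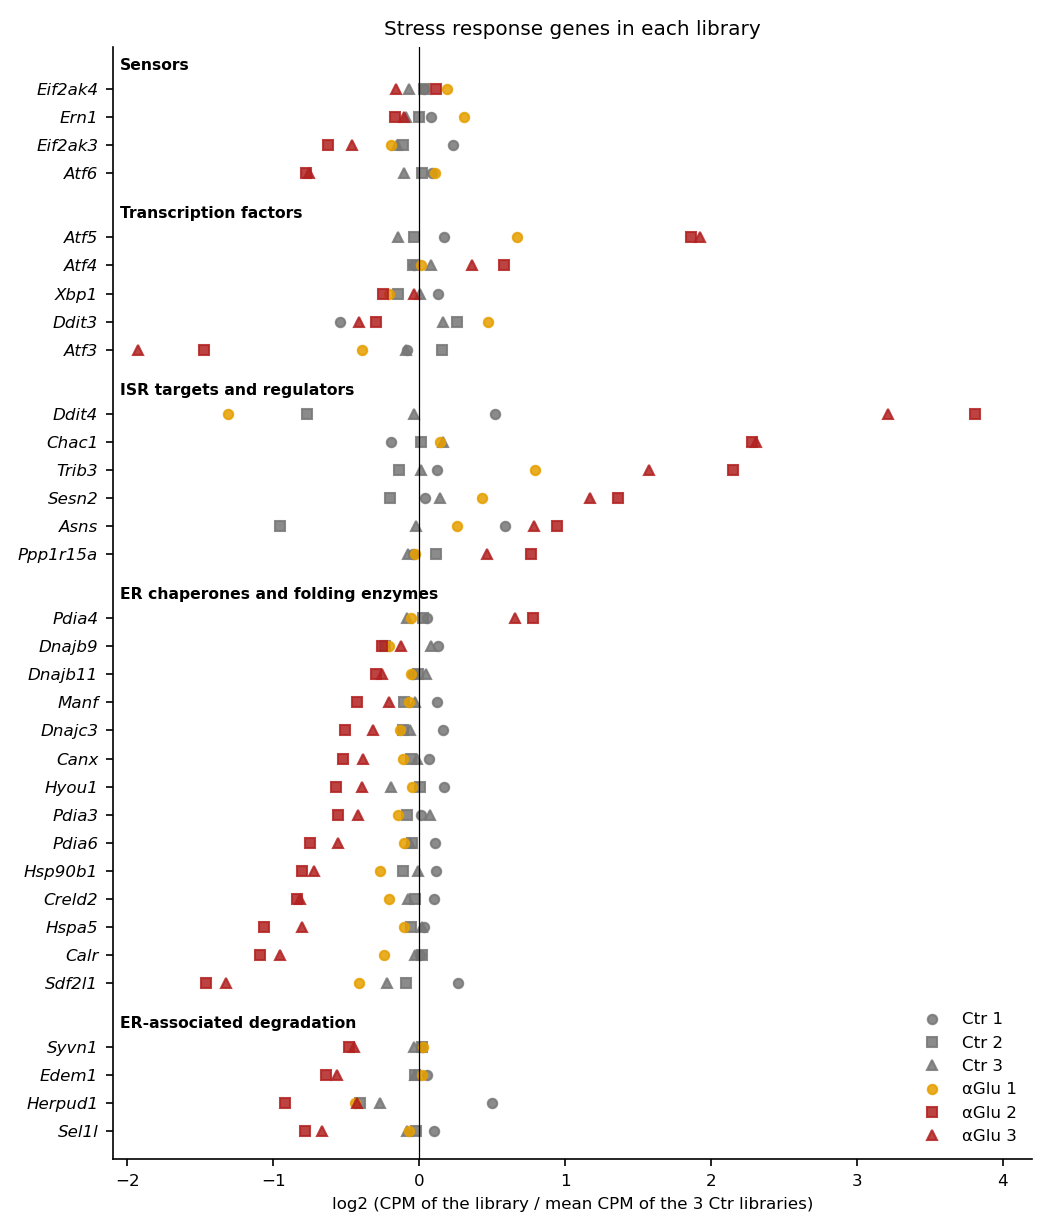
Each row is 1 of the 33 genes and each point 1 library, placed by the log2 ratio of its CPM to the mean CPM of the 3 Ctr libraries (grey); αGlu 1 is orange, αGlu 2 and αGlu 3 are red. ER folding genes lie left of the Ctr libraries in αGlu 2 and αGlu 3 for 12 of 14 genes and ISR targets lie right for 6 of 6, while αGlu 1 departs less than the mean of these 2 libraries in 28 of 33 genes. The shares of all genes with these positions were not counted.

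αGlu 1 deviated from the Ctr mean by less than the mean of αGlu 2 and αGlu 3 in 28 of the 33 genes and in the same direction in 24. It lay within the range of the Ctr libraries for 10 genes, below it for 15 and above it for 8. The shares of all genes with these positions were not counted, so the counts are no result about the set. The median SD of log2 CPM of the 31 tested genes was 0.10 among Ctr libraries and 0.33 among αGlu libraries, beside 0.14 and 0.20 over all genes. A bulk library cannot tell fewer cells that express a gene from less RNA per cell, which holds for each value in the text.

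Of the sensors, Eif2ak3 (chr6:70844515-70905245), which codes for PERK, had every αGlu library below Ctr. Its CPM was 38.8, 30.6 and 29.6 in Ctr 1, 2 and 3, and 28.9, 21.4 and 23.99 in αGlu 1, 2 and 3. The log2 fold change was −0.42 ± 0.16 (SE, 3 libraries a group; adjusted p = 0.187, edgeR quasi-likelihood), and −0.55 without αGlu 1 (adjusted p = 0.0221). Atf6 (chr1:170704674-170867771) was at 146, 140 and 128 CPM in Ctr against 149, 80.5 and 81.8 CPM in αGlu. αGlu 1 was thus as high as Ctr, and the other αGlu libraries were well below. Its log2 fold change was −0.41 ± 0.26 with all libraries (adjusted p = 0.334) and −0.77 ± 0.09 without αGlu 1 (adjusted p = 0.00108). Ern1 (chr11:106394650-106487852), coding for IRE1, was at 82.5, 78.0 and 73.3 CPM in Ctr against 96.5, 69.3 and 72.5 CPM in αGlu, so that the groups overlapped. Eif2ak4 (chr2:118388618-118475234), coding for GCN2, was at 35.7, 35.7 and 33.3 CPM in Ctr against 39.9, 37.8 and 31.3 CPM in αGlu. The log2 fold changes of Ern1 (0.03 ± 0.14) and Eif2ak4 (0.06 ± 0.11) were smaller than their standard errors, and turned to −0.14 and −0.019 without αGlu 1.

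The transcription factors lay on both sides of Ctr. Atf5 (chr7:44812256-44816658), a relative of ATF4 that is translated under the same control, was at 44.2, 38.4 and 35.5 CPM in Ctr against 62.8, 143 and 149 CPM in αGlu. All αGlu libraries were above all Ctr libraries, and αGlu 1 was the nearest to Ctr. Its mean was 39.4 ± 4.44 CPM (SD, n = 3) in Ctr and 118 ± 48.3 CPM in αGlu. The log2 fold change was 1.59 ± 0.34, with the smallest adjusted p of the set (0.151, edgeR quasi-likelihood). Without αGlu 1 it was 1.89 ± 0.11 (adjusted p = 7.06e-05). DESeq2 called Atf5 with 6 libraries (adjusted p = 0.000577). Exons of Atf5 overlap those of Nup62 and Il4i1 on the opposite strand. Nup62 had log2 fold change 0.52 and Il4i1 −0.10, and whether the counting used the strand is not given in the sources used here.

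Atf4 (chr15:80255184-80257541), the central factor of the ISR, was at 172, 171 and 186 CPM in Ctr against 178, 263 and 227 CPM in αGlu. αGlu 1 lay within the Ctr range and αGlu 2 and αGlu 3 above it. Its log2 fold change was 0.34 ± 0.16 (adjusted p = 0.235, edgeR quasi-likelihood) and 0.47 without αGlu 1 (adjusted p = 0.0113). Atf3 (chr1:191170296-191218039), a stress-inducible factor that is known to restrain inflammatory genes in macrophages, had the most negative log2 fold change of the 31 tested genes. It was at 646, 764 and 643 CPM in Ctr against 521, 247 and 180 CPM in αGlu, every αGlu library below every Ctr library. For Atf3 the log2 fold change was −1.12 ± 0.40 (adjusted p = 0.178) and −1.69 ± 0.17 without αGlu 1 (adjusted p = 0.000666). DESeq2 called Atf3 with 6 libraries (adjusted p = 0.0538). Atf4 and Atf3 thus lay on opposite sides of Ctr in αGlu 2 and αGlu 3.

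Ddit3 (chr10:127290774-127296288), coding for CHOP, a factor tied to cell death under prolonged ER stress, was at 61.5, 107 and 99.9 CPM in Ctr against 124, 72.9 and 67.1 CPM in αGlu. The groups overlapped, with the highest value in αGlu 1 and the lowest in Ctr 1, and the log2 fold change was −0.02 ± 0.31. Its sign turned in 5 of the alternative settings. Exons of Ddit3 overlap those of the methionyl-tRNA synthetase gene (log2 fold change 0.34) on the other strand. The other gene model of Ddit3 overlaps the one used on the same strand, so the count of Ddit3 is uncertain. Xbp1 (chr11:5520659-5525893) was at 165, 137 and 151 CPM in Ctr against 131, 127 and 147 CPM in αGlu, with log2 fold change −0.16 ± 0.11 and −0.14 without αGlu 1 (adjusted p = 0.361), and −0.084 without Ctr 1. The gene-level count of Xbp1 does not separate the spliced from the unspliced mRNA.

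The 6 targets and regulators of the ISR had αGlu 2 and αGlu 3 above every Ctr library in each case. The share of all genes in this order was not counted, so the order is no result about these 6 genes. The 23.5% of all genes called higher without αGlu 1 is another measure and not that share. Chac1 and Ddit4 are among the 6 and passed the count filter only without αGlu 1. Trib3 (chr2:152337422-152344032), a pseudokinase induced by ATF4 and CHOP that holds back both factors, was at 3.45, 2.88 and 3.20 CPM in Ctr against 5.51, 14.1 and 9.46 CPM in αGlu. Every αGlu library was above Ctr and αGlu 2 was highest. For Trib3 the log2 fold change was 1.61 ± 0.35 (adjusted p = 0.153, edgeR quasi-likelihood), the highest of the 31 tested genes, and 1.89 without αGlu 1 (adjusted p = 0.000899). Sesn2 (chr4:132492032-132510501), an inhibitor of the growth kinase mTORC1, was at 13.1, 11.1 and 14.1 CPM in Ctr against 17.2, 32.8 and 28.7 CPM in αGlu, without overlap. Its log2 fold change was 1.04 ± 0.25 (adjusted p = 0.156) and 1.27 without αGlu 1 (adjusted p = 0.000563). DESeq2 called Trib3 (adjusted p = 0.00167) and Sesn2 (adjusted p = 0.00754) with all 6 libraries.

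Ppp1r15a (chr7:45522916-45526268) codes for GADD34, the phosphatase subunit that reverses eIF2 phosphorylation. It was at 31.9, 35.6 and 31.2 CPM in Ctr against 32.2, 56.0 and 45.3 CPM in αGlu, αGlu 1 lying within the Ctr range. This gave a log2 fold change of 0.44 ± 0.20 (adjusted p = 0.233, edgeR quasi-likelihood) and 0.62 without αGlu 1 (adjusted p = 0.00655), and it was 0.24 without αGlu 2. Asns (chr6:7675169-7693254), coding for asparagine synthetase, varied among the Ctr libraries themselves, at 14.7, 5.06 and 9.65 CPM, and was at 11.8, 18.9 and 16.9 CPM in αGlu. Its log2 fold change was 0.70 ± 0.40 (adjusted p = 0.302), and it was not called without αGlu 1 either (0.87 ± 0.38, adjusted p = 0.114). It was 0.38 without Ctr 2 and 1.12 without Ctr 1.

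The remaining 2 ISR genes had fewer than 10 reads in every Ctr library. Chac1 (chr2:119351229-119354381), coding for an enzyme that degrades glutathione, had 4, 5 and 5 reads in Ctr and 4, 32 and 28 reads in αGlu. Ddit4 (chr10:59949669-59951834), coding for the mTORC1 inhibitor REDD1, had 9, 4 and 6 reads in Ctr and 2, 127 and 72 reads in αGlu. For both genes αGlu 1 was among the libraries with fewest reads and αGlu 2 and αGlu 3 were far above all others. Ddit4 was at 0.285 ± 0.121 CPM (SD, n = 3) in Ctr, against 3.998 and 2.64 CPM in αGlu 2 and αGlu 3. DESeq2, which applies another filter, gave an adjusted p of 0.0526 for Ddit4 and 0.106 for Chac1.

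**Figure D2:**
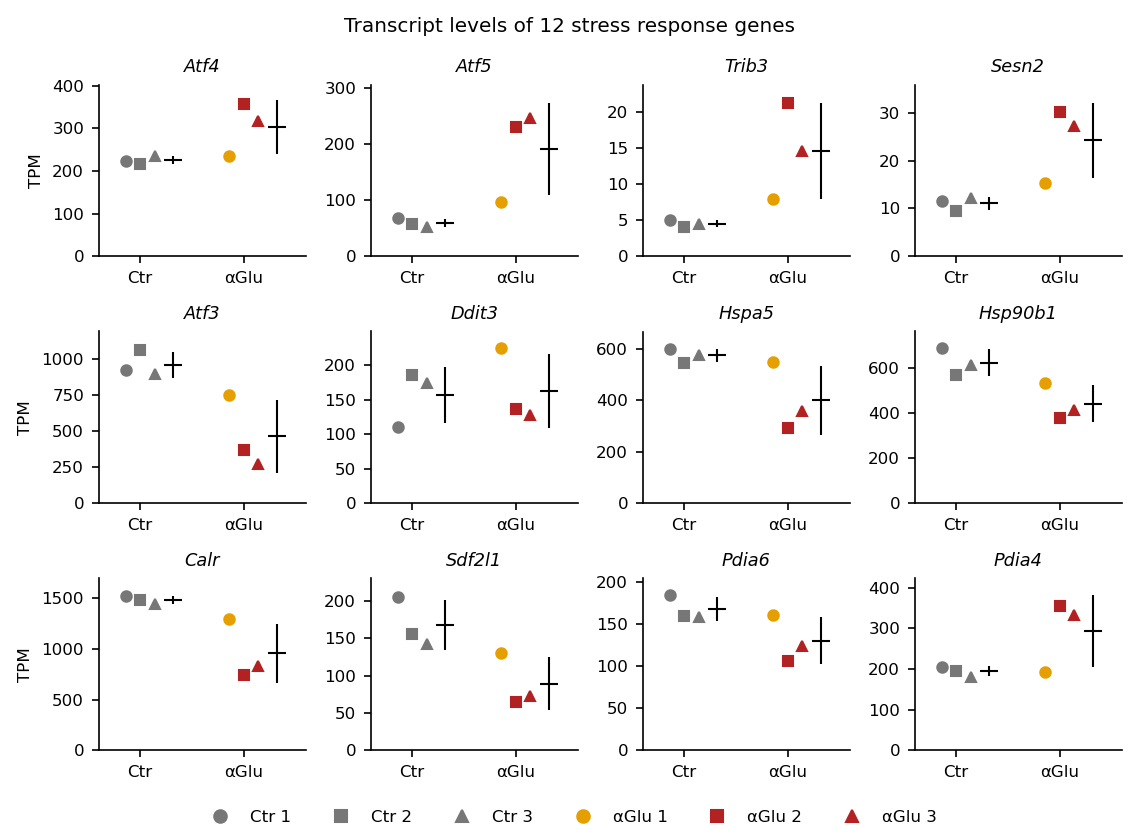
TPM (transcript levels scaled for length and depth, as deposited) of 12 of the genes in each of the 6 libraries, with the mean (horizontal line) and SD (vertical line, n = 3) beside each group; every axis starts at 0. Trib3 and Sesn2 are above Ctr in every αGlu library, Calr is at 1481 TPM on average in Ctr and at 738 and 834 in αGlu 2 and αGlu 3, and Pdia4 is the only folding gene shown with αGlu 2 and αGlu 3 above Ctr.

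The ER chaperones and folding enzymes, with 14 genes the longest list, had the highest summed level of the 5 roles. The sums were not scaled for the number of genes. Their summed TPM, which is scaled per transcript length, was 4745, 4307 and 4390 in Ctr and 4049, 2876 and 3192 in αGlu, each αGlu library below each Ctr library. The summed TPM of the 6 ISR genes was 67.6, 55.9 and 59.8 in Ctr and 71.4, 144 and 120 in αGlu. Of the 14 folding genes, 13 had a negative log2 fold change, 10 had every αGlu library below every Ctr library (beside 15.9% of all genes tested), and 12 had αGlu 2 and αGlu 3 below every Ctr library. Without αGlu 1, 12 were called lower and 1 (Pdia4) higher, beside 25.6% and 23.5% of all genes. How many of all genes had αGlu 2 and αGlu 3 below every Ctr library was not counted, so the count of 12 in this order is no result about the folding genes.

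Calr (chr8:84841850-84846934), coding for calreticulin, a lectin chaperone of glycoproteins, was at 1423, 1434 and 1386 CPM in Ctr against 1196, 664 and 731 CPM in αGlu. The Ctr libraries lay close together (1415 ± 25.01 CPM, SD, n = 3), and every αGlu library was below them. For Calr the log2 fold change was −0.71 ± 0.25 (adjusted p = 0.175, edgeR quasi-likelihood) and −1.02 ± 0.10 without αGlu 1 (adjusted p = 0.000486). Its membrane-bound relative Canx was at 487, 448 and 461 CPM in Ctr against 431, 324 and 357 CPM in αGlu, also without overlap (log2 fold change −0.33 ± 0.14). Pdia3, the disulfide isomerase that works with both lectins, was at 595, 558 and 621 CPM in Ctr against 534, 403 and 441 CPM in αGlu (−0.37 ± 0.14). These 3 genes of glycoprotein folding were each lower in every αGlu library than in any Ctr library. None passed the threshold with 6 libraries in edgeR, and DESeq2 called Calr and Pdia3 (adjusted p = 0.0564 and 0.0935).

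Hspa5 (chr2:34771970-34777547) codes for BiP, the ER chaperone that also holds the sensors inactive. It was at 825, 776 and 817 CPM in Ctr against 749, 386 and 462 CPM in αGlu, without overlap, αGlu 1 lying just under the lowest Ctr library. The log2 fold change was −0.60 ± 0.26 (adjusted p = 0.217, edgeR quasi-likelihood) and −0.93 ± 0.11 without αGlu 1 (adjusted p = 0.00124). Hsp90b1 (chr10:86690209-86705509), the ER form of the HSP90 chaperone, was at 902, 770 and 827 CPM in Ctr against 693, 477 and 507 CPM in αGlu. Its log2 fold change was −0.58 ± 0.18 (adjusted p = 0.162) and −0.77 without αGlu 1 (adjusted p = 0.00223). DESeq2 called Hsp90b1 with 6 libraries (adjusted p = 0.0349). Hyou1, which reloads BiP with nucleotide, overlapped between the groups, at 153, 136 and 119 CPM in Ctr against 131, 91.5 and 103 CPM in αGlu.

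Sdf2l1 (chr16:17130138-17132383), a partner of BiP and of its co-chaperone DNAJB11, had the most negative log2 fold change of the folding genes. It was at 74.1, 58.0 and 53.0 CPM in Ctr against 46.4, 22.4 and 24.7 CPM in αGlu, with no overlap (−0.99 ± 0.31, adjusted p = 0.161, edgeR quasi-likelihood). Without αGlu 1 it was −1.39 ± 0.16 (adjusted p = 0.000972). Creld2, a stress-inducible isomerase-like protein, was at 35.3, 32.2 and 31.1 CPM in Ctr against 28.5, 18.4 and 18.6 CPM in αGlu (−0.59 ± 0.19, adjusted p = 0.162). DESeq2 called both, with adjusted p of 0.0383 for Sdf2l1 and 0.0715 for Creld2.

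The co-chaperones of BiP lay closer to Ctr. Dnajb11 was at 122, 125 and 130 CPM in Ctr against 121, 103 and 105 CPM in αGlu (log2 fold change −0.20 ± 0.09). Dnajc3 was at 128, 106 and 109 CPM in Ctr against 104, 80.1 and 91.7 CPM in αGlu (−0.31 ± 0.13). Both were lower in every αGlu library, in αGlu 1 by a small margin. Dnajb9, a co-chaperone that represses IRE1, and Manf, a secreted protective factor kept in the ER by BiP, overlapped between the groups (−0.19 ± 0.11 and −0.23 ± 0.12), and Dnajb9 was the only folding gene not called without αGlu 1 (adjusted p = 0.265, edgeR quasi-likelihood). Exons of Manf overlap those of Rbm15b on the same strand (log2 fold change 0.016) and of Dcaf1 on the opposite strand (0.59), so the count of Manf is uncertain.

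Of the disulfide isomerases, Pdia6 and Pdia4 differed in direction. Pdia6 was at 225, 201 and 199 CPM in Ctr against 194, 124 and 142 CPM in αGlu, without overlap (−0.44 ± 0.18). Pdia4 (chr6:47796141-47813430) was at 161, 157 and 146 CPM in Ctr against 148, 266 and 243 CPM in αGlu, with αGlu 1 within the Ctr range and the other αGlu libraries above it. The log2 fold change of Pdia4 was 0.50 ± 0.22 (adjusted p = 0.222, edgeR quasi-likelihood) and 0.71 ± 0.09 without αGlu 1 (adjusted p = 0.00145), and that of Pdia6 without αGlu 1 was −0.65 ± 0.10 (adjusted p = 0.00399). The difference between these genes was not tested.

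**Figure D3:**
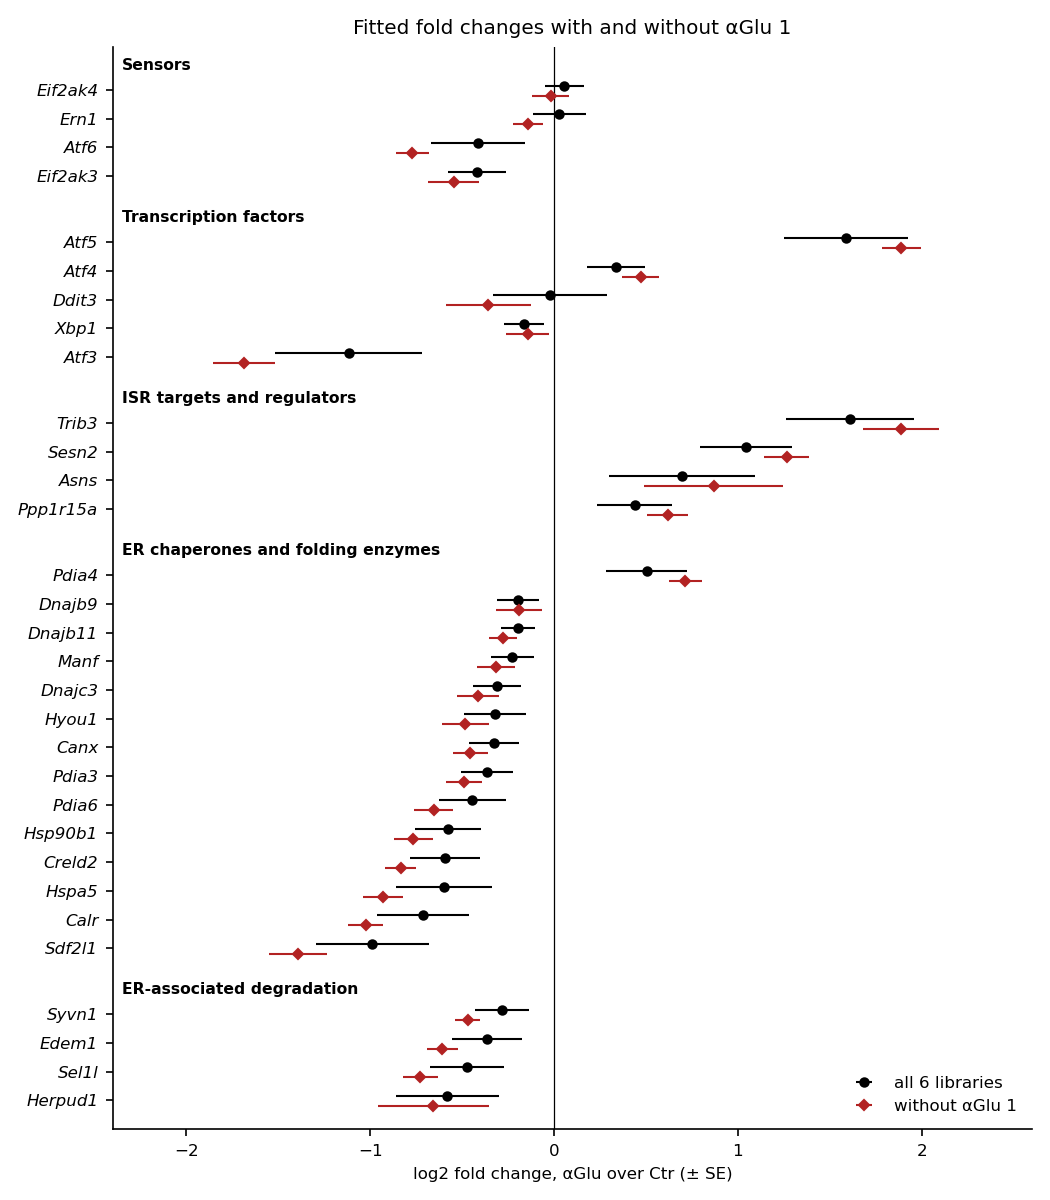
Log2 fold change (αGlu over Ctr, ± SE) of each tested gene with all 6 libraries (black) and without αGlu 1 (red). Without αGlu 1 most values lie farther from 0 and the standard errors are narrower for all genes but Xbp1, Dnajb9 and Herpud1, as for Calr (−0.71 ± 0.25 against −1.02 ± 0.10), and the signs differ for Ern1 and Eif2ak4, which lie near 0. αGlu 1 was set apart on these same data, so these shifts follow in part from that choice.

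The 4 components of ER-associated degradation, which return misfolded proteins to the cytosol for destruction, had αGlu 2 and αGlu 3 below every Ctr library. The share of all genes in this order was not counted, so the order is no result about these 4 genes. The 25.6% of all genes called lower without αGlu 1 is another measure and not that share. Sel1l (chr12:91806043-91849157), the adaptor of the ubiquitin ligase HRD1, was at 244, 224 and 214 CPM in Ctr against 216, 132 and 143 CPM in αGlu. Syvn1 (chr19:6046576-6053712), coding for HRD1 itself, was at 62.8, 62.8 and 60.6 CPM in Ctr against 63.2, 44.4 and 45.4 CPM in αGlu. Edem1 (chr6:108828641-108859356), which hands glycoproteins to this complex, was at 255, 241 and 241 CPM in Ctr against 249, 158 and 166 CPM in αGlu. In these genes αGlu 1 was at the level of Ctr. Their log2 fold changes were −0.47, −0.28 and −0.36 with all libraries, and −0.73, −0.47 and −0.61 without αGlu 1, where all 3 were called (largest adjusted p = 0.0025, edgeR quasi-likelihood). Herpud1 (chr8:94386438-94395377), which assembles the complex, was at 29.3, 15.6 and 17.1 CPM in Ctr against 15.2, 10.9 and 15.4 CPM in αGlu. Its groups did not overlap, but Ctr 1 stood above Ctr 2 and Ctr 3, and the log2 fold change of −0.58 ± 0.28 became −0.24 without Ctr 1.

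The genes with an ERSE or ERSE-II in their promoter window can be set beside the rest. All 10 had a negative log2 fold change, from −0.71 to −0.20 with a median of −0.51, and 9 had every αGlu library below every Ctr library (beside 15.9% of all genes tested), Syvn1 being the exception. Of the 18 other tested genes with a window, 9 were negative and 9 positive, with a median of 0.0025, and 4 lay below and 3 above Ctr without overlap. These 18 mix the roles. The folding and degradation genes among them were negative as well (Sdf2l1 −0.99, Sel1l −0.47, Pdia3 −0.37, Edem1 −0.36 and Dnajb9 −0.19), apart from Pdia4 (0.50). Of the 5 genes with a CARE, Trib3 and Asns had positive values, Atf3 and Herpud1 negative values, and Chac1 was not tested. Since 8 of the 10 ERSE genes are folding genes, the element and the role cannot be told apart here.

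**Figure D4:**
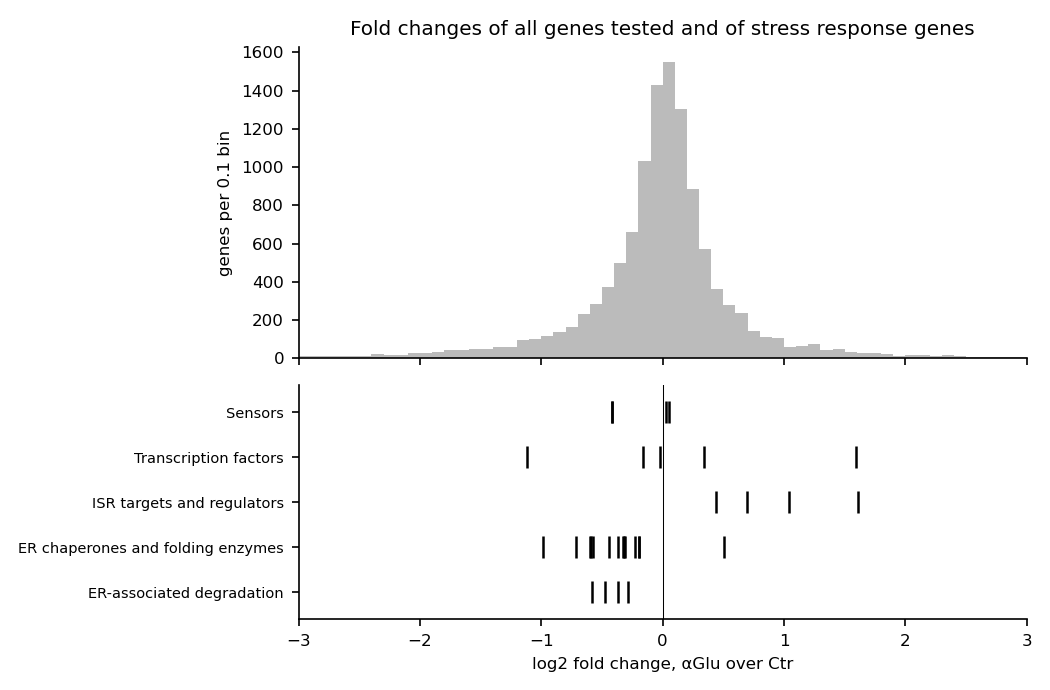
Distribution of the log2 fold changes (αGlu over Ctr) of all 11933 genes tested, in bins of 0.1 (upper panel), and the 31 tested stress response genes, 1 tick a gene, by role (lower panel). The bulk of all genes lies around a median of 0.016, the folding genes apart from Pdia4 and the degradation genes lie left of 0, and the ISR genes lie right of 0.

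In terms of levels per transcript length, Calr was the most abundant member in Ctr (1481 ± 40.7 TPM, SD, n = 3), followed by Atf3 (957 ± 87.8 TPM). Hsp90b1 (624 ± 60.3 TPM), Hspa5 (575 ± 26.8 TPM) and Pdia3 (569 ± 33.6 TPM) came next and did not differ beyond their spread. Canx was at 299 ± 18.05 TPM and Atf4 at 225 ± 9.98 TPM. The sensors were low, from 45.1 TPM for Atf6 to 14.1 TPM for Eif2ak4. At the low end were Trib3 (4.52 TPM), Ddit4 (0.49 TPM) and Chac1 (0.38 TPM).

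A wider set of 139 genes of the same pathways, of which 129 were tested, was examined in the same fit. None was called with 6 libraries, 12 were higher and 15 lower at an unadjusted p under 0.05, and 13 lay above and 20 below Ctr without overlap, which is 25.6% of those tested, beside 30.2% of all genes. Their median log2 fold change was −0.036. Without αGlu 1, 59 of them were called in edgeR (25 higher and 34 lower), beside 49.1% of all genes, and DESeq2 called 18 with 6 libraries (11 higher and 7 lower), beside 15.9%. These shares are at or below those of all genes, so the counts are no result about the wider set, and the counts of its lists without αGlu 1 are to be read against the same 49.1% (23.5% higher and 25.6% lower).

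Among 25 tested ATF4 targets and aminoacyl-tRNA synthetases, 16 had a positive and 9 a negative log2 fold change, with a median of 0.048, and 11 were called higher and 4 lower without αGlu 1. The 2 with the smallest p lay in opposite directions. Aars, coding for alanyl-tRNA synthetase, was at 130, 116 and 124 CPM in Ctr against 155, 204 and 201 CPM in αGlu (0.60 ± 0.13, adjusted p = 0.155, edgeR quasi-likelihood). Psat1, an enzyme of serine synthesis, was at 34.0, 21.6 and 19.3 CPM in Ctr against 7.74, 5.32 and 5.50 CPM in αGlu (−2.02 ± 0.27, adjusted p = 0.149). Psat1 was low in αGlu 1 as well. ATF4 targets thus lay on both sides of Ctr.

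Of the 14 genes that control eIF2, 7 were called without αGlu 1 (6 higher and 1 lower), which is near the 49.1% of all genes. Eif2s2, a subunit of eIF2, had log2 fold change 0.25 ± 0.10 with 6 libraries. Impact, an inhibitor of GCN2 activation, was at 115, 125 and 119 CPM in Ctr against 109, 85.4 and 77.4 CPM in αGlu (−0.40 ± 0.14), without overlap. Ppp1r15b, the constitutive counterpart of Ppp1r15a, was at 108, 126 and 116 CPM in Ctr against 117, 119 and 98.3 CPM in αGlu, so that αGlu 2 was within the Ctr range and αGlu 3 below it, while Ppp1r15a was above it in both.

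Of 23 further tested ER folding genes, 10 had a positive and 13 a negative log2 fold change, with a median of −0.11, and 4 were called higher and 6 lower without αGlu 1. The oxidases that recharge the disulfide isomerases differed. Ero1l was at 42.3, 41.0 and 42.7 CPM in Ctr against 38.7, 132 and 130 CPM in αGlu (1.26 ± 0.45, adjusted p = 0.178, edgeR quasi-likelihood). Ero1lb was at 48.9, 47.9 and 46.7 CPM in Ctr against 44.2, 30.9 and 33.1 CPM in αGlu (−0.41 ± 0.14). Dnajc10, a reductase of the ER, had log2 fold change 0.35 ± 0.10, and P4hb, the founding disulfide isomerase, −0.11 ± 0.11.

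Of 24 tested genes of translocation and glycosylation, 20 had a negative log2 fold change with a median of −0.10, and 11 were called lower and none higher without αGlu 1, in number near the 49.1% of all genes (25.6% lower and 23.5% higher). The translocon component Sec63 (−0.28 ± 0.09) and the signal peptidase subunit Spcs3 (−0.29 ± 0.10) were lower in every αGlu library than in any Ctr library. Of 20 further degradation genes, 5 were called lower and 1 higher without αGlu 1. The ubiquitin ligase gene Marchf6 was at 164, 134 and 119 CPM in Ctr against 110, 66.4 and 72.4 CPM in αGlu (−0.75 ± 0.23). Derl3, a degradation channel gene of secretory cells, was at or below 0.147 CPM in every library.

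Of 14 tested genes that process or tune the sensors, 1 was called higher and 3 lower without αGlu 1. Rtcb, the ligase that joins the Xbp1 exons after IRE1 has cut them, was at 91.3, 84.8 and 87.8 CPM in Ctr against 95.7, 117 and 112 CPM in αGlu (0.30 ± 0.10). Mbtps1 and Mbtps2, the Golgi proteases that cut ATF6, overlapped between the groups (−0.12 ± 0.09 and −0.05 ± 0.08). Wfs1, an ER protein that restrains ATF6, was at 49.5, 55.0 and 35.0 CPM in Ctr against 32.98, 11.9 and 8.29 CPM in αGlu (−1.40 ± 0.53). Of 9 genes linked to death under ER stress, 2 were called higher and 4 lower without αGlu 1. Bax was at 90.3, 98.5 and 95.6 CPM in Ctr against 105, 125 and 114 CPM in αGlu (0.28 ± 0.09). Casp12, a caspase of the ER, was at most at 1.95 CPM in any library (1.33 ± 0.44).

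Marker genes of other cells were examined because plasma cells, among others, are rich in ER chaperones. The summed CPM of 10 plasma and B cell markers was 195 to 303 in Ctr and 87.7 to 255 in αGlu, nearly all of it from Sdc1 and Prdm1, while Mzb1 was at 0 and Jchain at most at 0.23 CPM. The sum of 12 neutrophil markers was 129 to 211 in Ctr and 241 to 636 in αGlu, mostly from Csf3r, with Ly6g and Retnlg at 0. The neutrophil markers did not move together. Of the 4 tested with 6 libraries, 2 had a positive and 2 a negative log2 fold change (−1.49 to 1.72). Without αGlu 1, 2 of 6 tested were called higher and 3 lower, beside 23.5% and 25.6% of all genes. The 8 macrophage markers summed to 12178 to 13717 CPM in Ctr and 13000 to 19220 CPM in αGlu. The 8 dendritic cell markers summed to at most 2.42 CPM, 8 T and NK cell markers to at most 31.0 CPM with Trac and Cd3g at 0, 8 mast cell and basophil markers to at most 9.23 CPM and 8 fibroblast markers to at most 8.09 CPM. The 10 genes of the IL-4 response summed to 2811 to 4494 CPM in Ctr and 4070 to 7016 CPM in αGlu. They did not move together either. With 6 libraries 8 of them were tested, and 5 had a positive and 3 a negative log2 fold change (−3.42 to 5.06, median 0.32). Within the 10, Retnla was at 540, 245 and 289 CPM in Ctr against 101, 0.031 and 0.037 CPM in αGlu. The part of these marker levels in the results was not tested.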

How the data were processed

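mRNA of 3 Ctr and 3 αGlu libraries of mouse M2 Mφs was prepared with a stranded Illumina kit. Reads were handled by the authors in the RNA-seq Analysis Portal of QIAGEN, version 5.1. The build in the submitters' processing notes is GRCm38, while the aligner, the annotation release and the treatment of strand and of multiply mapped reads are not given in the sources used here. Deposited counts are whole reads over exons. Deposited RPKM and TPM values are scaled by length and depth by the authors, and a column labelled CPM is a signal that the authors scaled to another total and was not used. A blank row (1) was left out. Replicates were not pooled.

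Counts were filtered with filterByExpr (minimum count 10, minimum total 15), scaled by TMM and fitted by edgeR 4.0.16 (R 4.3.3), group being the only term. SE is the fold change over the square root of F. CPM is the count scaled to a TMM-adjusted library size of 1000000. The models were tested on simulated data. Alternatives were DESeq2 1.42.0, limma-voom 3.58.1, other scaling and filters, other thresholds, a replicate block and each library left out. The 33 genes and all lists were chosen with earlier results of these data known. All 33 are named, with the 2 genes of smallest p of each further list and partners of the members, except 1 gene that is not reported here. Gene positions are from GENCODE M21, promoter windows from RefSeq (GRCm38.p6). Counts cover 17912831 to 30386653 reads a library; counting error limits genes with few reads, such as Chac1, Ddit4, Trib3, Casp12 and Derl3.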

Additional observations from a re-analysis of the deposited data

How the results depend on the processing

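The main dependence was on αGlu 1. The number of stress response genes called was 0 with 6 libraries and 0 to 26 when each library was left out in turn, and that of all genes was 0 to 6055, where only the fit without αGlu 1 gave any call. DESeq2 called 10 of the set and 2179 of all genes, the unadjusted threshold passed 11 and 2943, and the replicate block called 17 of all genes and none of the set. None of the set was called with limma-voom, other filters or other scaling (RLE, upper quartile, library size). The common dispersion was 0.0690 with and 0.0203 without αGlu 1. Genes without overlap numbered 3 to 9 higher (main 3; 5 without Ctr 3 and 9 without αGlu 1) and 13 to 20 lower (main 13; 20 without αGlu 1) when each library was left out, and 11 were lower with upper-quartile factors and with library size alone. Groups of fewer libraries overlap less readily, and the share of all genes without overlap was not counted in these fits. The rise without αGlu 1 is therefore no result about the set. With library size as the only scaling, the median over all genes was 0.10 (main 0.016), and the sign of no gene in the set turned but that of Ddit3 (0.050). Signs also turned for Ern1 (−0.017 without Ctr 3, −0.14 without αGlu 1), Eif2ak4 (−0.019 without αGlu 1) and Ddit3 (0.12 without Ctr 2, 0.063 without Ctr 3, 0.099 without αGlu 2 and 0.14 without αGlu 3, with −0.36 without αGlu 1). The same-numbered libraries correlated at 0.076, 0.065 and 0.15 in their deviations from the group means, each library correlating best with its own number, which is a hint from the data; since not every value was over 0.1, the numbers were not taken as pairing. Chac1 and Ddit4 were limited by depth.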
